A study of Mus musculus with 6 samples.

Results

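The 10 genes described here mark cartilage and bone: the transcription factors *Sox9*, *Runx2* and *Sp7*, the bone matrix and mineral genes *Ibsp*, *Bglap* and *Alpl*, the cartilage matrix genes *Chad*, *Cilp* and *Matn3*, and the mineralization inhibitor *Mgp*. They were taken by symbol from 53819 genes listed in the count tables of healing mouse flexor digitorum longus (FDL) tendons, and all 10 were found and passed the filter on low counts, with 17496 genes tested in all. RNA was sequenced from 3 DTR tendons (genotype Scx-Cre+; DTR F/+) and 3 WT tendons (Scx-Cre-; DTR F/+, littermates), 1 tendon per library, harvested at D28 after the tendon was cut and repaired. Both genotypes carry the Cre-dependent diphtheria toxin receptor allele, and both were given 5 daily injections of diphtheria toxin (DT) into the injured area from D14 to D18. The muscle end of the tendon was also cut at surgery. Harvest at D28 after surgery is the study's account, while the sample titles read D28 post-depletion. The Cre is not inducible, so the model targets cells with a history of *Scx* expression, whatever they had become by the time of toxin. The study names as a limitation that the efficiency of depletion could not be quantified. Surgery was at 10 to 12 weeks of age, in males and females.

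In cartilage, *Sox9* switches on the matrix program of the chondrocyte, while *Runx2* and then *Sp7* commit cells to the osteoblast fate. Osteoblasts then make mineral-binding proteins such as bone sialoprotein (*Ibsp*) and osteocalcin (*Bglap*) and the phosphatase *Alpl*, which removes the mineralization inhibitor pyrophosphate. Tendon is normally free of mineral, but fibrocartilage forms where it attaches to bone or is compressed, and injured tendon can form cartilage or bone ectopically. Whether *Scx*-lineage depletion altered such genes in the healing tendon is the question the comparison of DTR with WT addresses.

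The tissue carried tendon transcripts throughout. Values of single libraries are listed below in the order of replicates 1 to 3. The WT libraries held 2203, 2705 and 3066 normalized counts of *Scx*, the tendon lineage transcription factor, and the DTR libraries 3478, 3409 and 3534, while the tendon membrane gene *Tnmd* ranged from 50544 to 92273. Normalized counts are counts scaled by TMM (trimmed mean of M-values, a correction for library composition) to the mean library size. Of a list of 13 tendon genes, 11 were fitted higher and 2 lower in DTR, with a median log2 fold change of 0.32. Library totals were between 42744138 and 48854310 counts. The libraries also contained RNA of neighbouring tissues in unequal amounts. Together, 20 skeletal muscle genes held 2.03% to 2.79% of the counts in WT, 2.50% in DTR replicate 2, and 0.350% and 0.665% in DTR replicates 1 and 3. The 18 keratinocyte genes held 0.355% and 0.216% in WT replicates 1 and 2, 0.0370% in DTR replicate 3, and at most 0.00295% elsewhere. The 10 adipocyte genes held 0.106% to 0.198% in WT and 0.0243% to 0.131% in DTR. Every gene of these 3 lists was fitted lower in DTR (medians of -1.01, -2.98 and -2.27), edgeR called none, and DESeq2 called 5 adipocyte genes. *Xist*, transcribed in female cells, reached 46453 normalized counts or more in WT replicate 2 and DTR replicates 2 and 3 and 4.12 or less elsewhere, so 1 WT and 2 DTR libraries were of female type. Each library is 1 animal's tendon. The edgeR p-values set the difference between groups against the spread between the 3 tendons of a group, estimated with information shared across genes.

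*Mgp*, *Cilp* and *Chad* were the abundant genes of the 10 in these tendons, and *Alpl*, *Bglap*, *Ibsp* and *Sp7* were rare. Expressed as CPM (counts scaled to library size) per kilobase of transcript, which allows genes to be compared, *Mgp* had a mean level of 893 ± 27.8 (SD, n = 3) in WT, followed by *Cilp* at 301 ± 20.2 and *Chad* at 153 ± 9.75. *Matn3* at 3.62 ± 0.304, *Sox9* at 3.09 ± 0.401 and *Runx2* at 1.98 ± 0.470 were far below. The last 4 in the order were *Alpl* at 0.563 ± 0.0747, *Bglap* at 0.502 ± 0.337, *Ibsp* at 0.164 ± 0.0828 and *Sp7* at 0.105 ± 0.0708. In WT, the ranges of neighbours in this order overlapped for *Matn3* and *Sox9*, for *Alpl* and *Bglap*, and for *Ibsp* and *Sp7*. In DTR tendons the order differed only in that *Runx2* (2.59 ± 0.487) stood before *Sox9* (2.57 ± 0.295) and *Ibsp* (0.231 ± 0.301) before *Bglap* (0.226 ± 0.15), and within both of these pairs the ranges overlapped. Transcript lengths came from GENCODE, since the annotation used for counting was not given in the sources used here, and levels per kilobase are therefore approximate.

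**Figure D1:**
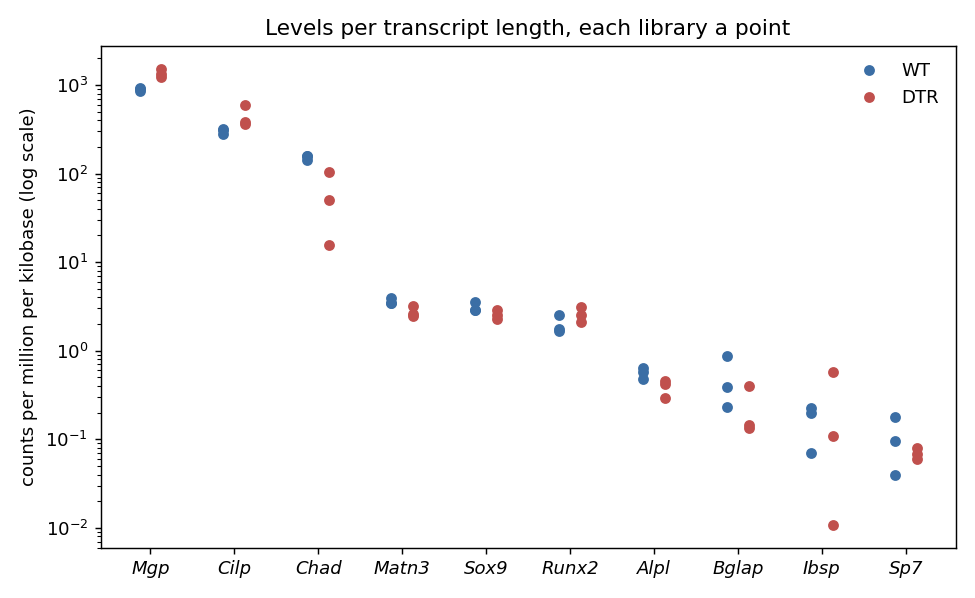
Level of each gene per transcript length, in CPM per kilobase on a log axis, with genes in the order of their WT mean and each point 1 library (blue WT, red DTR, 3 each). *Mgp*, *Cilp* and *Chad* lie above the other 7 genes in both groups, and the DTR points of *Chad* and *Ibsp* are the most spread.

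Groups without overlap were found mostly among the matrix genes, and no difference passed the adjusted threshold of the main test. *Mgp* and *Cilp* were higher and *Chad*, *Matn3* and *Alpl* lower in each DTR library than in each WT library, so that 5 of the 10 genes had no overlap between groups (2 above, 3 below), where 16.8% of all genes tested had none (8.96% above and 7.85% below). edgeR's quasi-likelihood test with Benjamini-Hochberg adjustment called 0 of the 10 and 0% of the 17496 genes, the smallest adjusted p of any gene being 0.199. Before adjustment, 3 of the 10 were under 0.05 (*Mgp* and *Cilp* higher, *Matn3* lower), against 11% of all genes tested (5.52% higher and 5.45% lower). DESeq2 called 1 of the 10 higher, *Mgp*, and 0 lower, against 2.65% of 17564 genes (1.12% higher and 1.53% lower). edgeR called 0.27% of genes without the filter, 0.00572% with the replicate number as a block and 3.02% without DTR replicate 2, and 0 of the 10 in each of these fits. The median absolute log2 fold change of the 10 genes was 0.55, and that of all genes tested was 0.16. The 10 genes were chosen with earlier results of these data known, so these comparisons with all genes are descriptive and test nothing. *Sp7*, *Ibsp* and *Bglap*, at 1 to 57 counts per library, enter this median with uncertain fold changes. Fold changes below are on the log2 scale, DTR against WT, ± SE, and adjusted p-values are those of edgeR's quasi-likelihood test unless DESeq2 is named. In bulk tissue, fewer cells of a type and less RNA per cell cannot be told apart.

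**Figure D2:**
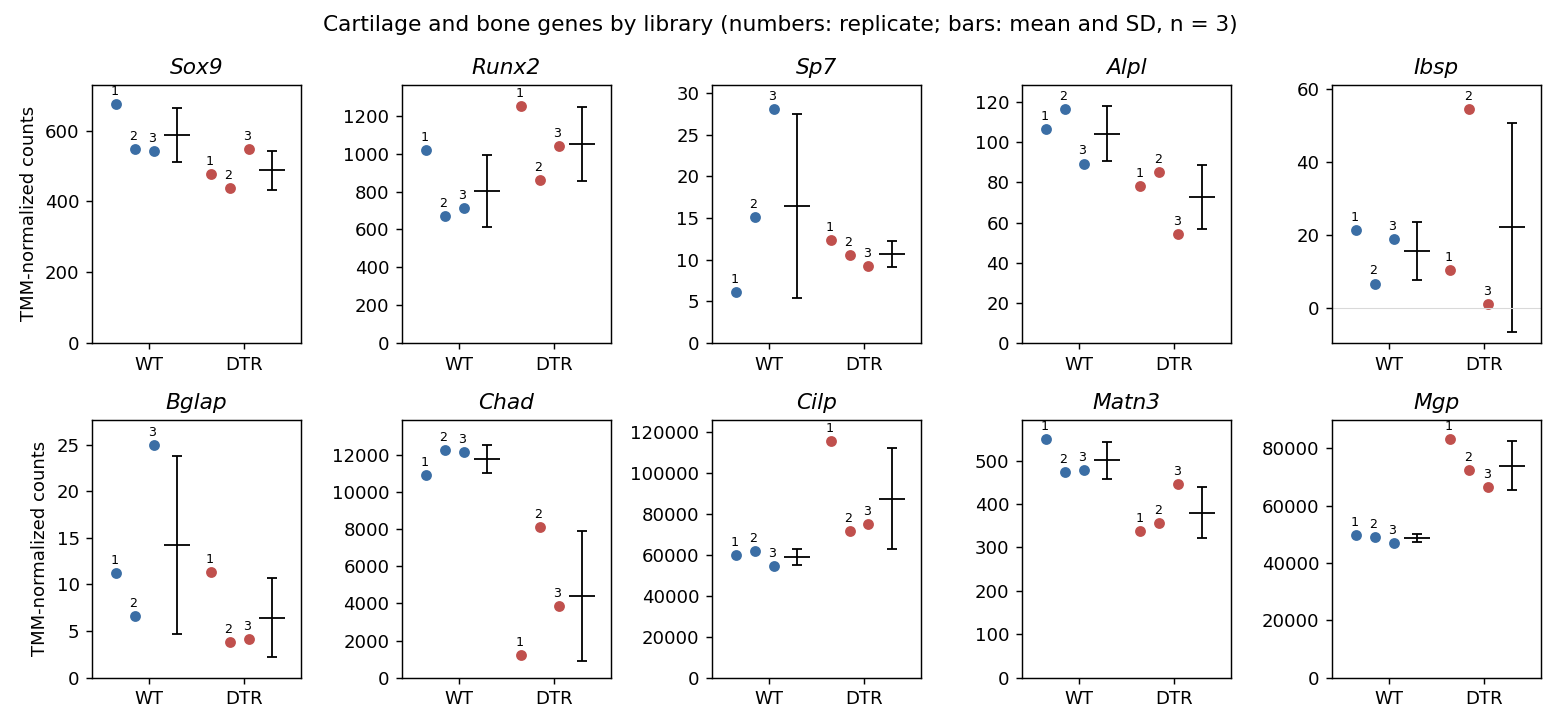
Normalized counts of the 10 genes in each library, with replicate numbers above the points, blue for WT and red for DTR, and the mean and SD of each group (n = 3) in black. The groups do not overlap for *Alpl*, *Chad*, *Cilp*, *Matn3* and *Mgp*, and 1 DTR library of *Ibsp*, replicate 2, lies above all others.

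*Mgp* encodes matrix Gla protein, a vitamin K-dependent protein that keeps soft tissue from mineralizing and is made by chondrocytes, vascular smooth muscle and fibroblasts. The WT libraries held 49904, 49139 and 46983 normalized counts and the DTR libraries 83112, 72317 and 66528. The lowest DTR library was thus well above the highest WT library, and the WT libraries lay within a narrow range (coefficient of variation 3.11%). The log2 fold change was 0.60 ± 0.13 (edgeR adjusted p = 0.274, the lowest of the 10 genes), and DESeq2 gave an adjusted p = 0.000177. It stayed between 0.51 and 0.68 when single libraries were left out, and was 0.55 with the skeletal muscle level as a covariate. *Mgp* is among the matrix genes that the study itself drew as higher in these same libraries, so its direction here is not independent evidence.

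*Cilp* encodes cartilage intermediate layer protein, a matrix protein of cartilage, meniscus and tendon that binds growth factors of the TGF-beta family. In WT it reached 60132, 62005 and 54425 normalized counts, and in DTR 115871, 71665 and 74947. DTR replicate 1 stood apart, at a level well above the other DTR libraries, which were themselves closer to WT. The log2 fold change was 0.57 ± 0.20 (adjusted p = 0.415 by edgeR and 0.0679 by DESeq2), 0.31 without DTR replicate 1, and 0.26 with the skeletal muscle level as a covariate. Its relative *Cilp2* was fitted in the other direction, at -0.40 ± 0.29, and its groups overlapped.

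*Chad* had the largest fitted difference of the 10 genes and the widest spread among the abundant ones. It encodes chondroadherin, a leucine-rich repeat protein by which chondrocytes attach to collagen and which is also made in tendon and bone. The WT libraries were alike at 10908, 12257 and 12161 normalized counts, whereas the DTR libraries were at 1198, 8105 and 3868. All DTR libraries were below all WT libraries, but they differed more from each other (coefficient of variation 79.3%) than the WT libraries did (6.39%), and DTR replicate 2 was the nearest to WT. The WT mean was 2.68 times the DTR mean, and the log2 fold change was -1.42 ± 0.71 (95% interval from -3.28 to 0.43, edgeR adjusted p = 0.514). Within the DTR group *Chad* followed the order of the skeletal muscle list, which held 0.350%, 2.50% and 0.665% of counts in replicates 1 to 3, and of the adipocyte list (0.0243%, 0.131% and 0.0338%). With the muscle level as a covariate the log2 fold change of *Chad* was -0.56. It was -0.98 without DTR replicate 1 and -2.22 without DTR replicate 2, and the part of adipocyte transcripts was not tested. Its relative *Chadl*, which was rare, ranged from 74.1 to 119 normalized counts in WT and from 94.8 to 111 in DTR, with overlap.

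**Figure D3:**
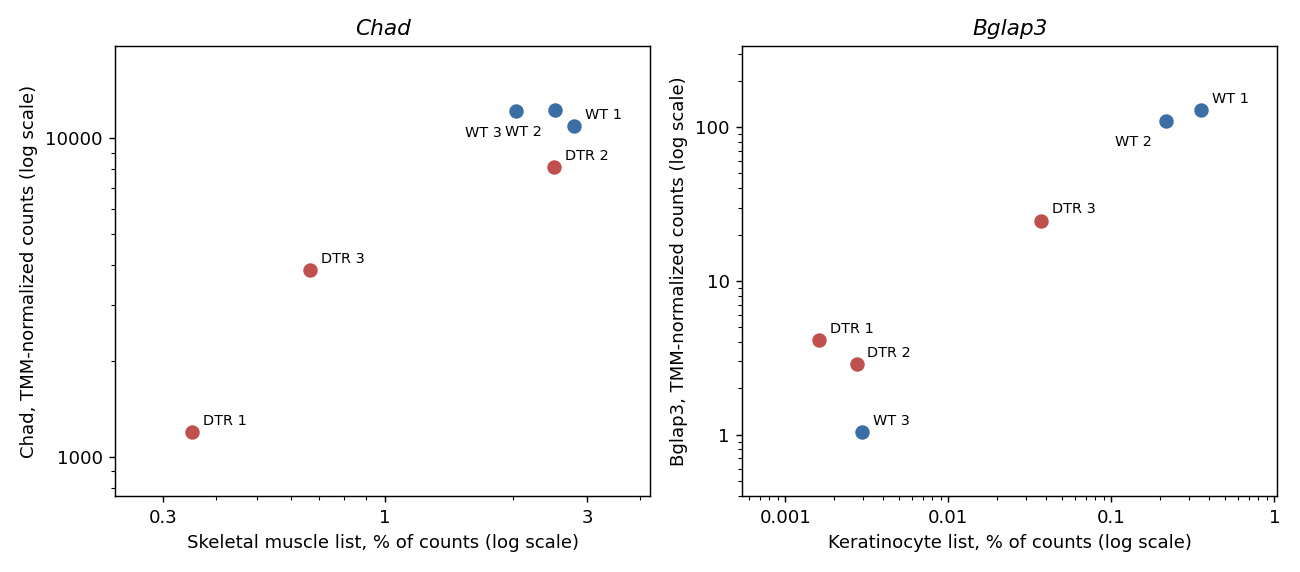
Normalized counts of *Chad* against the share of counts on the skeletal muscle list (left) and of *Bglap3* against the share on the keratinocyte list (right), each point 1 library and all axes logarithmic. *Chad* is lowest in DTR replicates 1 and 3, where the muscle share is also lowest, and *Bglap3* is highest in WT replicates 1 and 2, where the keratinocyte share is highest.

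*Matn3* encodes matrilin-3, an adaptor of the cartilage matrix that links collagen fibrils to proteoglycans. Normalized counts were 549, 474 and 479 for WT and 337, 357 and 447 for DTR. The gap was small, with DTR replicate 3 only slightly below WT replicate 2. The log2 fold change was -0.40 ± 0.16 (edgeR adjusted p = 0.440). Among the other matrilins, *Matn4* was at -0.62 ± 0.24 without overlap between groups and *Matn2* at 0.11 with overlap. *Matn1*, the matrilin most typical of cartilage, had at most 3.08 normalized counts in any library. Of 13 family relatives of the members, 8 were tested, with 2 fitted higher and 6 lower (median -0.38) and none called by edgeR or DESeq2, and 3 intestinal and placental phosphatase genes related to *Alpl* were at 0 in all libraries.

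For each of the 3 transcription factors the groups overlapped. *Sox9* stood at 675, 546 and 541 normalized counts in WT and at 476, 437 and 548 in DTR, and the groups overlapped through DTR replicate 3. Its log2 fold change was -0.27 ± 0.15, with a 95% interval from -0.61 to 0.07. It was highest in WT replicate 1, the library with the largest keratinocyte share (0.355%), and hair follicle cells are known to express *Sox9*. WT replicates 2 and 3 were close in *Sox9*, at keratinocyte shares of 0.216% and 0.00295%. With the keratinocyte level as a covariate the log2 fold change of *Sox9* was -0.16, and without WT replicate 1 it was also -0.16. The part of skin transcripts in its level was not tested. For *Runx2*, WT libraries held 1021, 672 and 712 normalized counts and DTR libraries 1255, 860 and 1041. Only WT replicate 1 lay within the DTR range. The log2 fold change of *Runx2* was 0.39 ± 0.20 (edgeR adjusted p = 0.504). It was 0.24 without DTR replicate 1, 0.60 without WT replicate 1 and 0.15 with the skeletal muscle covariate. *Sp7*, also called osterix, had between 6 and 27 counts in WT and between 9 and 12 in DTR, and its WT libraries (6.09, 15.1 and 28.1 normalized counts) spanned the whole DTR range. *Sp6*, a relative of *Sp7* in skin and teeth, was at -1.33 ± 0.58 with overlap. Without WT replicate 3, the log2 fold change of *Sp7*, -0.61 ± 0.57, was near 0 (0.0074), and without WT replicate 1 it was -0.998.

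The transcription factors that work with or against these 3 were measured with a list of 18 genes. All 18 were tested, 9 were fitted higher and 9 lower, none passed the adjusted threshold, and the median log2 fold change was -0.05. *Cbfb*, the partner subunit of all RUNX proteins, had 5819 to 6381 normalized counts in WT and 7021 to 7431 in DTR, without overlap (0.28 ± 0.08). *Sox6*, which acts with *Sox9* on cartilage genes, was at 1041, 962 and 1094 in WT and at 554, 891 and 537 in DTR, also without overlap (-0.64 ± 0.20). It was lowest in DTR replicates 1 and 3, the libraries with the lowest skeletal muscle shares (0.350% and 0.665%), and the part of muscle transcripts in its value was not tested. *Twist1*, a repressor of RUNX2 activity, was at 0.33 with overlap, and *Twist2* at -0.51 without overlap. By edgeR, *Cbfb* had the lowest adjusted p of these 4 genes (0.354) and *Twist2* the highest (0.474).

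**Figure D4:**
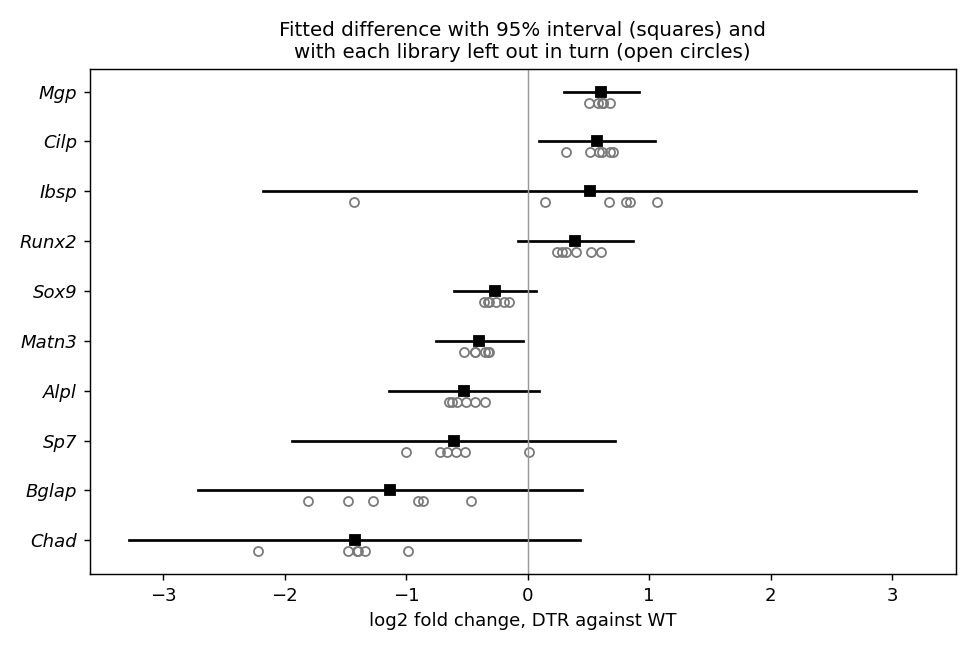
Log2 fold change of DTR against WT for the 10 genes (squares) with the 95% interval of edgeR's quasi-likelihood fit (lines) and the values with each library left out in turn (open circles). Intervals of *Mgp*, *Cilp* and *Matn3* exclude 0 before adjustment for the number of genes, and the open circles of *Ibsp* and *Sp7* lie on both sides of 0.

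Of the bone genes, *Ibsp* and *Bglap* had few counts, and *Alpl* had between 53 and 124 in every library. *Ibsp* had raw counts of 21, 7 and 18 in WT and of 10, 57 and 1 in DTR. DTR replicates 2 and 3 held the highest and the lowest value of all 6 libraries, so the log2 fold change was 0.51 ± 1.11, and with single libraries left out it ran from -1.43 (without DTR replicate 2) to 1.07 (without DTR replicate 3). *Alpl*, the tissue-nonspecific alkaline phosphatase, was measured at 107, 117 and 89.4 normalized counts in WT and at 78.4, 85.2 and 54.5 in DTR. Each DTR library was below each WT library, by a margin of a few counts for WT replicate 3 and DTR replicate 2. The log2 fold change was -0.52 ± 0.27 (edgeR adjusted p = 0.498). With a covariate it was -0.37 (skeletal muscle) or -0.55 (keratinocyte). *Alpl* is also made by endothelial cells. A list of 12 endothelial marker genes held 0.0844% to 0.111% of counts in WT and 0.0854% to 0.103% in DTR. Their median log2 fold change was -0.06 and none was called. The part of endothelial transcripts in the *Alpl* value was not tested.

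*Bglap* had raw counts of 11, 7 and 24 in WT and of 11, 4 and 4 in DTR. The groups overlapped, and the log2 fold change of -1.13 ± 0.68 was -0.46 without WT replicate 3 and -1.81 without DTR replicate 1. With a covariate it was -2.09 (skeletal muscle) or -1.66 (keratinocyte). Mice carry 3 copies of the osteocalcin gene side by side on chromosome 3. In GENCODE transcripts, 56.6% of the 50-base windows of *Bglap* and 88.2% of those of *Bglap2* occurred word for word in another copy, against 6.98% for *Bglap3*, so reads of *Bglap* and *Bglap2* could be split between copies or dropped in counting, and their values are uncertain. *Bglap2* stood at 13.2, 20.7 and 43.7 normalized counts in WT and at 20.6, 17.2 and 22.6 in DTR, highest in WT replicate 3 as *Bglap* was. *Bglap3* differed from both, at 129, 110 and 1.04 normalized counts in WT and at 4.12, 2.87 and 24.7 in DTR. It was high in the 3 libraries with the highest keratinocyte shares and low in the other 3. The part of skin transcripts in its level was not tested.

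The sequences before the start sites of these genes were examined for motifs of the factors described above. The RefSeq promoter table (build GRCm38.p6) held a start site for 7 of the 10 genes. Of 250 bases before each start site, the RUNX core ACCACA (or TGTGGT on the other strand) was found for *Runx2* itself, *Bglap* and *Cilp*, and in 14% of all 32851 windows of this length. The TATA box letters TATAAA (or TTTATA on the other strand), found in 12.4% of all windows, occurred for *Bglap*, *Chad*, *Ibsp* and 1 of the 2 start sites of *Alpl*. The match lay on the other strand for *Ibsp*, beginning 28 bases before the start site, and for *Alpl*, beginning 192 bases before it. The SOX letters ACAAAG (or CTTTGT, 16.5% of windows) occurred for both start sites of *Alpl*, and ACAATG (or CATTGT, 10.7%) for *Ibsp*. The *Matn3* window held none of these 4 motifs. The matches in the *Bglap* window did not overlap each other. The following windows are given because they belong to the regulator, to the osteocalcin copies whose levels diverged, and to *Cilp* and *Chad*. Among the cartilage matrix genes *Chad*, *Cilp* and *Matn3*, *Cilp* had the highest and *Chad* the lowest fitted log2 fold change. The windows read 5′ to 3′ up to the base before the start site, with the RUNX core and TATA letters in capitals.
*Runx2* (chr17:44814628-44814877, minus strand): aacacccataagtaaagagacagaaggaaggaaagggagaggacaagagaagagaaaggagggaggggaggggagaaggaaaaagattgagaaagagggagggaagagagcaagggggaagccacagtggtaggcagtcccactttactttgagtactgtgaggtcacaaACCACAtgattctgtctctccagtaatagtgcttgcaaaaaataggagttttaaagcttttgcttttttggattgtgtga
*Bglap* (chr3:88384467-88384716, minus strand): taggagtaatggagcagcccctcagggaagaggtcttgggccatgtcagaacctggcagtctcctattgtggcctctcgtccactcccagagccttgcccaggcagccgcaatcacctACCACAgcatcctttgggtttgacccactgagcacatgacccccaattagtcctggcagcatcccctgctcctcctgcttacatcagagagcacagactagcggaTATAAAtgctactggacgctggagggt
*Bglap3* (chr3:88369832-88370081, minus strand): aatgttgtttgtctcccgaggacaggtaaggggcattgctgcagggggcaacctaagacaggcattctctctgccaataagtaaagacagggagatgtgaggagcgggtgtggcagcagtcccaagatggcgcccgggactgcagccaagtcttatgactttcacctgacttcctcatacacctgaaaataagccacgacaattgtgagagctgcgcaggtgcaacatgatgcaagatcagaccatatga
*Cilp* (chr9:65264930-65265179, plus strand): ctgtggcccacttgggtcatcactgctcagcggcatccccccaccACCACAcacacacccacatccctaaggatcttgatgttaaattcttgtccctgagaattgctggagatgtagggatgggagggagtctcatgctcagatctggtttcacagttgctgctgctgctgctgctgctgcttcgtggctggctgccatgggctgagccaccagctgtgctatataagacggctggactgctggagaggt
*Chad* (chr11:94564797-94565046, plus strand): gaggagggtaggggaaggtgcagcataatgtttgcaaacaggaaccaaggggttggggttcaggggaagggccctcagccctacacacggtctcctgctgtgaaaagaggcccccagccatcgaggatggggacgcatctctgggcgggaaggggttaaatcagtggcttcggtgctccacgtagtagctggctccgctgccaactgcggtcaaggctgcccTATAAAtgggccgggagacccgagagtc
The RUNX core began 80 bases before the start site in *Runx2*, 132 in *Bglap* and 205 in *Cilp*, and the TATA letters 27 bases before it in *Bglap* and 28 in *Chad*. None of the 3 start sites of *Bglap3* had the exact letters of either motif in its window, and the one shown is the most downstream of them. Only exact letters were searched. The related letters TATATAAG stand in the *Cilp* window and in the most upstream *Bglap3* window, which is not shown, so a lack of matches does not mean a lack of a TATA box. Of the genes whose windows held the core, *Runx2* and *Cilp* were fitted higher and *Bglap* lower in DTR. None of them was called by edgeR, and *Bglap* had only 4 to 24 raw counts per library. Whether RUNX proteins act on these genes here was not tested.

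Markers of mature cartilage and bone cells were measured with further lists. Of 16 cartilage matrix genes, 12 were tested, with 5 fitted higher and 7 lower and a median log2 fold change of -0.10. *Col2a1*, the main collagen of cartilage, had 429 to 545 normalized counts in WT and 360 to 481 in DTR, and *Acan*, the large cartilage proteoglycan, 6911 to 10484 and 5506 to 12160, with overlap in both. *Col10a1*, the collagen of hypertrophic chondrocytes, had at most 8.25 in any library. *Epyc*, a small proteoglycan, had 268 to 505 in WT and 605 to 722 in DTR without overlap (0.85 ± 0.23), and *Col11a1* was also without overlap (0.39 ± 0.14). On the other side, *Col9a1* was at -1.36 with overlap, and *Cytl1*, a secreted factor of chondrocytes, at -1.75 without overlap. DESeq2 called *Epyc* higher and *Col9a1* lower, and edgeR called none of the 12. The study also drew *Epyc* as higher in these libraries, as it did *Mgp*.

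Of 16 osteoblast and osteocyte genes, 12 were tested, with 5 fitted higher and 7 lower and a median of -0.25. The list includes *Car3*, which is also on the adipocyte list and is abundant in muscle and fat. Of the osteocyte markers, *Sost* and *Mepe* were nearly absent, with at most 2.08 and 1.88 normalized counts in any library. *Dmp1* was low but present in every library, with 18.3 to 32.0 in WT and 18.2 to 50.4 in DTR. *Phex*, a protease of osteoblasts and osteocytes, had 66.9 to 99.5 in WT and 15.5, 65.1 and 33.9 in DTR, without overlap. DTR replicate 2 was only slightly below the lowest WT library. Within DTR, *Phex* followed the order of the skeletal muscle list, whose part in its value was not tested. *Dlx5* and *Dlx3*, homeobox genes that act upstream of *Sp7* and *Bglap*, had log2 fold changes of -0.67 and -0.81, also without overlap. *Smpd3*, a sphingomyelinase needed for bone mineralization, had the most negative value (-2.18 ± 0.70) and was highest in WT replicates 1 and 2, as the keratinocyte list was, whose part in this value was not tested. DESeq2 called 1 of the 12, *Smpd3*, lower, and edgeR called none.

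Osteoclast markers were fitted higher in 8 of the 9 genes tested, with a median log2 fold change of 0.56. DTR replicate 1 was the highest library for the first 3 genes named here. *Acp5*, the tartrate-resistant acid phosphatase, was at 1797, 955 and 962 normalized counts in WT and at 4087, 1399 and 1531 in DTR. *Ocstamp*, needed for the fusion of osteoclasts, had 30.5, 18.8 and 18.7 in WT and 141, 37.3 and 40.1 in DTR, without overlap, and *Dcstamp* 11.3 to 22.3 in WT and 79.4, 16.3 and 18.5 in DTR. *Atp6v0d2*, a proton pump subunit, was at 0.56 and *Ctsk*, which tendon fibroblasts also make, at 0.20, both with overlap. *Calcr*, the calcitonin receptor that defines mature osteoclasts, had at most 4.06 in any library. None of the 9 passed the adjusted threshold of edgeR or DESeq2.

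The genes that set phosphate and pyrophosphate outside the cell, together with those that carboxylate the proteins of *Mgp* and *Bglap*, made a list of 13, of which 12 were tested, with 8 fitted higher and 4 lower and a median of 0.18. *Nt5e*, the ectonucleotidase CD73 that makes adenosine and phosphate from AMP, was at 4129, 3949 and 3808 normalized counts in WT and at 8085, 5723 and 5933 in DTR. The groups were well apart (0.73 ± 0.14, edgeR adjusted p = 0.268), and DESeq2 called it higher. *Phospho1*, a phosphatase of mineralizing vesicles, had 16.6 to 33.9 in WT and 6.17 to 10.5 in DTR, without overlap (-1.57 ± 0.45). *Slc20a1*, a phosphate transporter, was at 0.31 and *Ggcx*, the vitamin K-dependent carboxylase, at 0.27, both with overlap.

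Finally, the genes whose profile over the 6 libraries was most like that of each member were listed, by the root mean square difference between log2 CPM values centred on each gene's mean. For *Mgp* these were *Rab15*, *Lrch2* and *Thbs4* (0.05 to 0.08), for *Cilp* *Sdk1*, *Csgalnact1* and *Loxl1* (0.06 to 0.09), and for *Matn3* *Rps6kb2*, *Ppfibp2* and *Gm17491* (0.05). *Sox9* was nearest to *Apol6*, *Slc16a13* and *Arl5c* (0.06 to 0.07), *Runx2* to *Asf1b*, *Arhgap11a* and *Dact1* (0.08), and *Alpl* to *Bnip3*, *Oplah* and *Ogdh* (0.06 to 0.10). *Chad* was nearest to *Mcpt4*, *St8sia5* and *Lingo3* (0.26 to 0.28), *Sp7* to *Gm30075*, *Pkhd1l1* and *Fam181b* (0.27 to 0.29), and *Bglap* to *Myh11*, *Myl9* and *Actg2* (0.37 to 0.38). *Ibsp* had no close profile, its nearest genes being *Cd28*, *Zfp641* and *Immp2l* at 0.93 to 0.94. These likenesses over 6 libraries are a description and carry no test.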

How the data were processed

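Libraries were made from poly(A) RNA of FDL tendons. The labels name both a stranded TruSeq kit and a SMARTER kit. Reads were cleaned by the authors with FastP and assigned to genes with featureCounts. The deposited raw counts came with a signal table, in which every library's counts had been divided by its DESeq2 size factor (the submitters' processing notes name DESeq2 1.22.1). The ratio of both tables was checked to be constant in each column. The aligner, genome build, annotation and strand setting were not given in the sources used here, so overlapping and antisense genes are uncertain. Samples were grouped by the labels, and deposited columns were matched to them by name.

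The main test was edgeR 4.0.16 in R 4.3.3 (filterByExpr, TMM, robust quasi-likelihood fit with genotype as the single term, Benjamini-Hochberg over 17496 genes, threshold 0.05). The edgeR main test was used in place of the DESeq2 fit of the study's methods, which is an alternative here (version 1.42.0), as is limma 3.58.1. Standard errors (SE) were obtained from each fold change and its F value. Depth was 42744138 to 48854310 counts per library. Chi-square tests between replicates gave 40.3 to 205 per degree of freedom, and no library was treated as a duplicate. An exact permutation test of 3 against 3 cannot give a p under 0.1 and was not used for calls. Tests were checked on simulated counts. The 10 genes and the lists were chosen with earlier results of these data known. Named genes were the 10 members, up to 4 genes per list with the smallest p, *Scx*, *Tnmd*, the other *Bglap* copies, 3 genes nearest in profile to each member (mean of at least 50 normalized counts), and the defining markers of cartilage, bone and osteoclasts, which are given with their values although none was at 0 in all libraries. *Chadl*, *Matn2*, *Car3* and *Xist* are named outside this rule and were chosen after their values were seen. Transcript lengths were exon unions of GENCODE vM21. Proteins of the members and start sites of *Sox9*, *Sp7* and *Mgp* were not analysed here. Alternatives were DESeq2, limma-voom, other normalizations and filters, a block for the replicate number, omission of single libraries, limma on log2(value + 1) of the deposited normalized table, and the skeletal muscle or keratinocyte level as a covariate.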

Additional observations from a re-analysis of the deposited data

How the results depend on the processing

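edgeR's quasi-likelihood test called 0 of the 10 genes in either direction, as did each alternative (0 to 0 with single libraries left out), except that DESeq2 called 1 higher, *Mgp*. Over all genes, edgeR called 0, DESeq2 466, edgeR without a filter on low counts 83, and edgeR without DTR replicate 2 544. The direction was kept for *Sox9*, *Runx2*, *Bglap*, *Alpl*, *Chad*, *Cilp*, *Matn3* and *Mgp* under all alternatives run. *Ibsp*, at 0.51, was reversed by limma-voom (-0.52), the deposited normalized counts in limma (-0.46) and the keratinocyte covariate (-0.35), and ranged from -1.43 to 1.07 with 1 library left out. *Sp7*, at -0.61, ranged from -0.998 to 0.0074 with 1 library left out. The causes were not tested. With at least 10 counts required in every library, 7 of the 10 genes were tested (without *Sp7*, *Ibsp* and *Bglap*).

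Replicate numbers are shared between the groups, and no source used here says whether a number marks a shared animal or litter. Same-numbered libraries did not deviate together (correlations of -0.19, -0.15 and -0.68 for replicates 1 to 3). Correlations of differently numbered libraries ran from -0.45 to 0.56. With 3 libraries per group and unequal RNA of neighbouring tissues, these correlations cannot decide whether the libraries were paired. With the replicate block, 0 members and 1 gene of all were called, and *Ibsp* was at -0.34. Depth limits *Sp7*, *Ibsp* and *Bglap*, at 1 to 57 counts per library.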
